A study of Mus musculus with 20 samples.

Results

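HPRT knockdown and control spherical neural masses were compared on day 0, before their differentiation toward dopaminergic neurons began. The comparison rests on 2 of the 20 libraries of the series, 1 per line, and gives for each gene the log2 ratio of the HPRT knockdown over the control within the day 0 table. The genes described were chosen by the size of that ratio, and the same-day tables of days 1, 2, 3 and 4 and of days 8, 10, 12 and 14 then showed which ratios were kept, lost or reversed. The genes named as kept, lost or reversed most were picked by their ratios on those days too. Both lines were mouse ESD3 embryonic stem cells of strain 129s2/SvPas, maintained on primary mouse embryo fibroblast feeders, transduced with a viral vector and selected with puromycin. The control expressed a short hairpin RNA against luciferase and the HPRT knockdown one against HPRT, designed on the human gene according to the methods. Each line was made once, the RNAs of a time point had been pooled, and no library was repeated on any day. A day 0 ratio therefore has no replicate check and no p-value, and what belongs to the knockdown cannot be told apart from what belongs to that line or that culture. In bulk RNA, fewer cells of a type and less RNA per cell cannot be told apart either.

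Hypoxanthine guanine phosphoribosyltransferase (HPRT) returns hypoxanthine and guanine to the nucleotide pool, the salvage arm of purine metabolism, and its loss in humans causes Lesch Nyhan disease. Spherical neural masses are expanded clusters of neural precursor cells grown out of embryoid bodies. In the neural tube, precursors take on a ventral identity under Sonic hedgehog and a dorsal identity under BMP and Wnt signals, and retinoic acid and FGF set their position from head to tail.

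Of 37561 features shared by all tables, 13608 genes, those with a log2 normalized count of typically 4 or more, passed the filter and entered the comparison. Whole or partial reads of day 0 could be recovered for 7184 of these genes (52.8%), with a median of 213.9 reads in the control and 330.0 in the knockdown. The size factor of the knockdown library was 1.47 times that of the control, so equal expression means more reads in the knockdown. Intervals given below are exact 95% intervals from those reads and cover counting error only.

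Hprt was examined first, since it is the targeted gene. Hprt (Gene ID 15452, NCBIM37 chrX:50341314-50374836, plus strand) had 775.0 reads in the control and 197.6 in the knockdown on day 0, a ratio of -2.53 with an interval of -2.76 to -2.30. Days 1 to 4 gave -2.70, -3.90, -4.56 and -4.94, and days 8 to 14 gave -4.38, -3.79, -4.21 and -5.004. Day 6, kept apart from these 8 later days throughout, gave -3.42. Hprt was thus lower in the knockdown on every day, and least so on day 0. The 8 later days had a mean of -4.19 with a limma adjusted p of 2.62e-05, and day 0 lay 1.66 above that mean.

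On day 0, 1701 genes were at least 2-fold higher in the knockdown (12.5% of the 13608 genes tested) and 901 were at least 2-fold lower (6.62%). At least 4-fold differences were reached by 402 higher and 84 lower genes. The ratios next to the limit were 1.00094 inside and 0.99997 outside for higher genes, and -1.00117 inside and -0.99910 outside for lower genes. Read counts had been recovered for 1091 of the higher and 560 of the lower genes.

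Among genes with a log2 normalized count of at least 8 on day 0 whose tables agreed within 0.1, Ptgs1 (Gene ID 19224, chr2:36085946-36107792, plus strand) had the highest ratio. Ptgs1 encodes cyclooxygenase-1 of prostaglandin synthesis and had 25 reads in the control against 3639.4 in the knockdown, a ratio of 6.63 with an interval of 6.07 to 7.26. It was higher in the knockdown on the 8 later days, between 3.46 (day 10) and 5.33 (day 8), and at 2.37 on day 6, with a limma adjusted p of 2.62e-05 over the 8 later days. Car3, a carbonic anhydrase, followed at 5.05 and Krt19, a keratin of simple epithelia, at 5.02. Several of the next genes encode matrix proteins of cartilage and connective tissue. Prelp was at 4.53, Fmod (fibromodulin) at 3.95 and Acan (aggrecan) at 3.86, the last with 252.0 and 5358.9 reads. Others act in transmitter handling or cyclic nucleotide turnover. The GABA transporter gene Slc6a11 was at 4.26, the GABA-B receptor subunit gene Gabbr2 at 4.69 and the phosphodiesterase gene Pde1a at 4.77. Agt, which encodes angiotensinogen and is made by astrocytes in brain, was at 4.10.

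The lowest ratio at that level was that of En2 (Gene ID 13799, chr5:28492236-28500152, plus strand), a homeobox gene of the midbrain and hindbrain boundary. En2 had 858.0 reads in the control and 115.4 in the knockdown, a ratio of -3.45 with an interval of -3.75 to -3.17. Genes of retinoic acid handling were among the next. Crabp2, a retinoic acid binding protein gene, was at -2.99, Cyp26b1, which encodes a retinoic acid degrading enzyme, at -2.85 and Crabp1 at -2.31. Trap1a was at -2.52, the glial connexin gene Gjc3 at -2.43, 9630013A20Rik at -2.32 and Lin28b, which encodes an inhibitor of let-7 maturation, at -2.31.

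**Figure D1:**
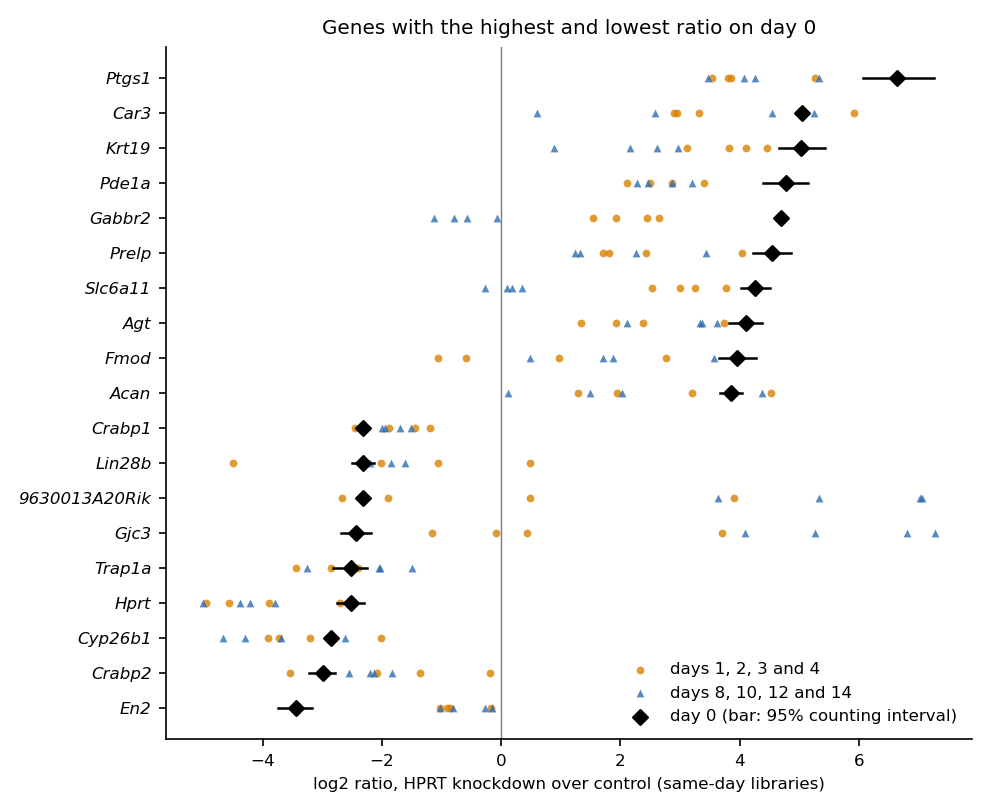
Log2 ratio of the HPRT knockdown over the control (x axis) for the 10 highest and 9 of the 10 lowest genes of day 0 among those with a log2 normalized count of at least 8. Black diamonds are day 0 with a bar for the 95% counting interval where reads were recovered, orange dots are days 1 to 4 and blue triangles are days 8 to 14. Ptgs1 and Pde1a stay to the right of 0 and Hprt and Cyp26b1 to the left on all of these days, whereas Gabbr2 crosses to the left and Gjc3 and 9630013A20Rik to the right.

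Between a log2 count of 4 and 8, the highest ratios were those of BC021891 at 6.08, Shh at 5.49, Angptl1 at 5.39, Papln at 5.20 and Slc15a5 at 5.11. BC021891 had only 3.0 reads in the control, so its interval ran from 4.51 to 8.36. The lowest were Neu4, a sialidase gene, at -4.55, Gpr37l1 at -3.95, D14Ertd668e at -3.72, Meox1 at -3.69 and the POU homeobox gene Pou4f2 at -3.38. Values floored at 1 normalized count understate the ratios of such genes most.

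Of the 1701 genes higher on day 0, 994 (58.4%) were kept in days 1 to 4, meaning that the median of the 4 ratios had the same sign and was at least 1.5-fold. Over all genes tested, 17.4% had a median at least 1.5-fold higher in those days and 16.1% at least 1.5-fold lower. A further 560 genes (32.9%) were lost and 147 (8.64%) were reversed. In days 8 to 14, where the shares of all genes past 1.5-fold were 15.9% upward and 16.1% downward, 626 (36.8%) were kept, 722 (42.4%) lost and 353 (20.8%) reversed. Of the 901 lower genes, 583 (64.7%) were kept in days 1 to 4, 290 (32.2%) lost and 28 (3.11%) reversed. In days 8 to 14, 404 of them (44.8%) were kept, 424 (47.1%) lost and 73 (8.10%) reversed. Both windows kept 541 of the higher and 352 of the lower genes, and 372 higher and 209 lower genes were kept in the first window and lost in the second.

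The later days were tested with limma. Beyond the level filter, they did not enter the choice of the genes at least 2-fold higher or lower on day 0. Over all genes 26.7% were called higher and 26.7% called lower at an adjusted p of 0.05. Of the genes higher on day 0, 837 (49.2%) were called in the same direction and 149 (8.76%) in the opposite one. Of those lower on day 0, 619 (68.7%) were called lower and 43 (4.77%) higher. The ratio kept the sign of day 0 on all 8 later days for 559 of the higher genes (32.9%, against 17.7% of all genes above 0 on all 8) and for 494 of the lower genes (54.8%, against 17.99%).

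Day by day, the share of higher genes kept at 1.5-fold was 63.5%, 51.7%, 57.3% and 63.1% on days 1, 2, 3 and 4. It stood at 52.7% on day 8, and from day 10 to day 14 it lay between 34.1% and 34.8%. The reversed share was 9.17% on day 1 and 27.3% on day 14. Lower genes were kept at 71.6% on day 1 and 44.5% on day 14, with 11.1% reversed on day 14. Day 6, which the study had left out of its pathway analysis, kept 18.7% of the higher genes and reversed 29.6%. Across genes, which share their libraries and are not replicates, Pearson's r of the day 0 ratio with that of a later day was highest on day 4 (0.620) and lowest outside day 6 on day 14 (0.095). Spearman's correlation was also highest on day 4 (0.623), but lowest outside day 6 on day 10 (0.198), with 0.21 on day 14.

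**Figure D2:**
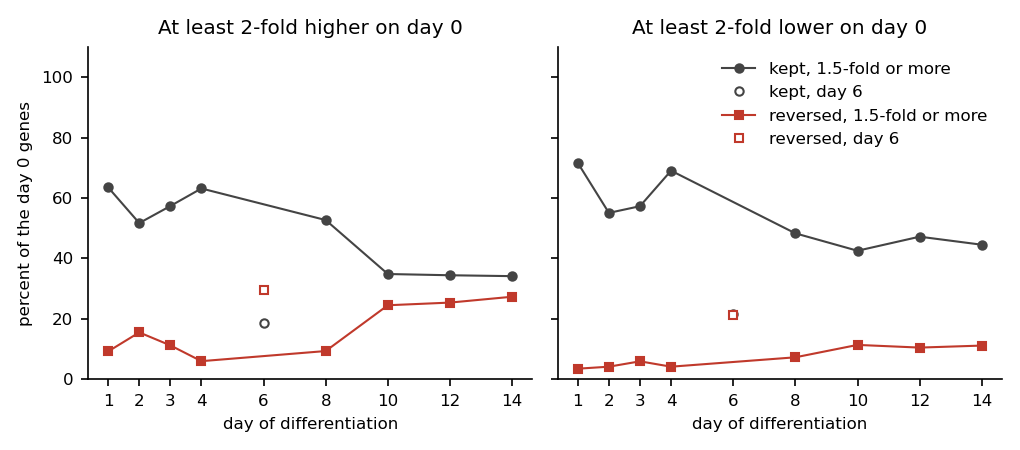
Percent of the genes at least 2-fold higher (left) or lower (right) on day 0 whose ratio had the same sign (grey circles) or the opposite sign (red squares) by at least 1.5-fold on each later day, with day 6 as open symbols. The kept share of higher genes goes from 63.5% on day 1 to 34.1% on day 14 and their reversed share from 9.17% to 27.3%.

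The genes kept most firmly through the course were picked by their ratios on day 0 and the 8 later days. The p values given here over those 8 days are therefore no independent support. Among the higher genes they were Ptgs1, Kcnj16, Rab38, Mmd2 and Pde1a. Rab38, a small GTPase of melanosome and lysosome-related transport, had 75 and 1434.3 reads on day 0, a ratio of 3.70, and stayed between 2.42 and 4.11 on the 8 later days (limma adjusted p 2.62e-05). Kcnj16, an inward rectifier potassium channel gene, was at 3.52 on day 0 and between 2.56 and 5.52 on those 8 days, but at -1.098 on day 6. Among the lower genes they were Usp26, Pou4f2, Sst, Hprt and Sp8. Sst, which encodes the neuropeptide somatostatin, was at -2.59 on day 0 and between -8.08 and -2.67 later (limma adjusted p 0.000162). Sp8, a zinc finger gene of the forebrain, was at -2.65 and stayed between -4.41 and -2.44.

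Slc6a11 led the higher genes that were lost. After 4.26 on day 0 its ratio was 3.00, 2.54, 3.26 and 3.77 on days 1, 2, 3 and 4 and then 0.09, 0.18, -0.27 and 0.35 on days 8, 10, 12 and 14. Sall3, Caskin1, Phkg1 and Adamtsl1 were likewise kept in days 1 to 4 and under 1.5-fold on each of days 8 to 14, from day 0 ratios of 2.22 to 2.46. The lower genes lost by days 8 to 14 were the ribosomal protein gene Rps16 (-1.87 on day 0, -0.27 as the median of days 8 to 14), the translocon gene Sec61g (-1.93 and -0.08), the splicing gene Lsm5 (-1.91 and 0.13) and the loci Gm6314 and Gm8210. Rps16 and the Gm loci can share reads with near-identical copies, so their ratios are uncertain.

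The 5 higher genes reversed most were genes known from skeletal muscle, a set that covers few of the 353 reversed in days 8 to 14. Among the gene lists described below, those reversed in these days included 8 of 12 higher imprinted and 5 of 8 higher neuron genes. They also included 4 of 5 higher fibroblast and 4 of 6 higher mesoderm and cardiac genes. Of all higher genes 20.8% were reversed, and 10.4% of those with a log2 count of at least 8. Tmem8c, whose product drives myoblast fusion, had 6.0 reads in the control and 59.0 in the knockdown on day 0, a ratio of 2.74 with an interval of 1.54 to 4.25. It was at -7.05, -8.08, -7.79 and -1.46 on days 1 to 4 and at -3.06, -0.70, -7.75 and -10.03 on days 8 to 14. Myog (myogenin), Myh3 (embryonic myosin), Mybph and Chrnd (an acetylcholine receptor subunit) took the same course from day 0 ratios of 1.01 to 2.79. For these 5 genes the mean of the 8 later days lay between -6.62 and -5.53, with limma adjusted p values of 0.000625 to 0.00421. As the 5 were picked by their ratios on these same days, the p values are no independent support. These 5 genes were thus higher in the knockdown on day 0 and lower on all 8 later days.

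The 5 lower genes reversed most ran the other way. They too were picked by their ratios on the 8 later days, so the test over those days is no independent support for them. Bcas1, an oligodendrocyte gene, had 1593.1 reads in the control and 632.9 in the knockdown on day 0, a ratio of -1.89 with an interval of -2.02 to -1.75. It was at 0.12, 0.73, 5.05 and 1.86 on days 1 to 4 and at 7.25, 8.13, 5.89 and 6.59 on days 8 to 14, with a limma adjusted p of 0.00508 over the 8 days. Enpp6, Neu4, Gpr37l1 and Fa2h, which encodes a fatty acid hydroxylase of myelin lipids, had day 0 ratios of -4.55 to -1.51 and medians of 6.57 to 7.09 in days 8 to 14. Gpr37l1 did not pass the test over the 8 days (limma adjusted p 0.0555), since it was at -4.14 on day 1 and -1.61 on day 2.

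**Figure D3:**
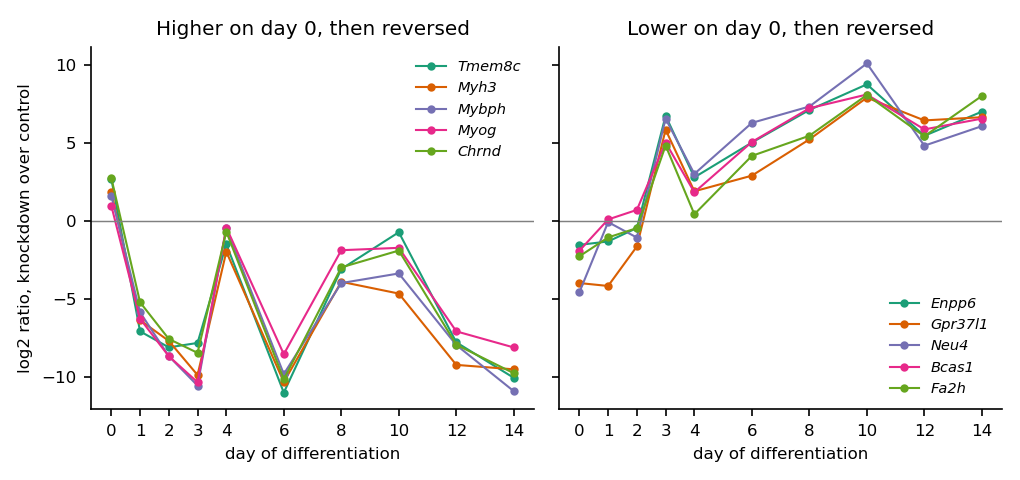
Log2 ratio of the HPRT knockdown over the control (y axis) on each day (x axis, day 6 included) for 5 genes higher on day 0 that later reversed (left, muscle genes) and 5 genes lower on day 0 that later reversed (right, Bcas1, Enpp6, Fa2h, Gpr37l1 and Neu4). The muscle genes lie below 0 from day 1, and the genes on the right lie above 0 from day 3.

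Differences between consecutive days were then read from the tables that pair day 0 and day 1 within each line. These tables hold the day 0 libraries, so the direction of the following values is partly fixed by the choice of genes. Between day 0 and day 1, 853 genes were at least 2-fold higher and 466 lower on day 1 in the control, against 831 and 1369 in the knockdown. For the 147 genes higher on day 0 and reversed in days 1 to 4, the median step was 0.84 in the control and -1.84 in the knockdown.

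Gene lists of 30 processes and cell types were counted on day 0 beside the median of all genes, which was -0.02. Of all genes 12.5% were at least 2-fold higher and 6.62% lower. The neural progenitor list, which defines the labelled cells, had a median of 0.11 over 19 genes, with 5 at least 2-fold higher and 2 lower. Sox2 was at -0.06, Sox1 at -0.26 with 1435.0 and 1754.6 reads, Msi1 at -0.29, Hes5 at 0.41 and Nes at 0.69. The neural progenitor genes Sox9, at 1.2 with 1184.2 and 3992.3 reads, and Rfx4, at 1.72 with 416.0 and 2008.7 reads, were kept in days 1 to 4. Pax6 (-1.13) and Sox3 (-1.41) were lower.

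Ventral neural tube and forebrain genes had the highest median of all lists, 1.62 over 17 genes. Past 2-fold there were 11 higher genes and 1 lower gene (12.5% and 6.62% of all genes), and all 11 were kept in days 1 to 4 and 8 of them in days 8 to 14. Shh, the ventralizing signal itself (Gene ID 20423, chr5:28783355-28793641, minus strand), was at 5.49 on day 0, at 3.59, 4.44, 3.61 and 5.83 on days 1 to 4 and at 4.51, 1.47, 1.07 and 2.31 on days 8 to 14 (limma adjusted p 0.00097). Dlx1, Dlx2 and Dlx5, homeobox genes of ventral forebrain interneurons, were at 3.75, 3.35 and 2.38. Nkx2-1, which marks the hypothalamus and medial ganglionic eminence, was listed at 10.06, but the tables of the same library disagreed by 0.21 for it. The lower member was Dbx1 at -1.54. Olig2 was at 0.48 on day 0 and reached 3.36 to 5.05 on days 8 to 14. With a log2 count of at least 8 the median of the ventral list was 0.93.

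The dopaminergic and midbrain list held genes of both directions, 6 higher and 4 lower among 15, with a median of 0.49. The higher members were Lmx1a, Foxa1, Corin, Foxa2, Aldh1a1 and Gch1, of which the first 4 are known from the floor plate. Lmx1a was at 3.27 with 59.0 and 833.1 reads, Foxa1 at 2.65, Corin at 2.56 and Foxa2 at 1.62, and these 4 were kept in both windows. The lower members were En2 at -3.45, Wnt1 at -1.85 with 76.0 and 31.0 reads and En1 at -1.12, known from the midbrain and hindbrain boundary, and Ddc at -1.06. These groupings within the list were made after the values were seen. En2 was then at -1.02, -0.86, -0.91 and -0.17 on days 1 to 4 and between -1.02 and -0.15 on days 8 to 14. Th, which encodes tyrosine hydroxylase of dopamine synthesis, was at 0.49, under the 2-fold limit.

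Hedgehog targets had a median of 1.38 over 7 genes on day 0, 5 of them at least 2-fold higher and none lower. Among them were Ptch1 (1.62), Cdon (1.55), Hhip (1.38) and Gli1 (1.25). Of the 5 higher genes, 2 were kept in days 1 to 4, Ptch1 among them, and none was reversed in that window. None of the 5 was kept in days 8 to 14, where Gli1 and Cdon were among those reversed. The list median was -0.54 in days 1 to 4 and -0.89 in days 8 to 14, while Shh itself was kept in both windows.

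Dorsal neural tube and sensory genes had the lowest list median, -1.37 over 18 genes, with 3 higher and 10 lower. The paired box gene Pax3 was at -2.15 with 482.0 and 160.0 reads and the sensory neuron gene Pou4f2 at -3.38. Pax7 was at -3.97, with tables disagreeing by 0.24. All 10 lower genes were kept in days 1 to 4 and 9 in days 8 to 14. Among the 13 members whose tables agreed within 0.1 the median was -0.06. That check ran through the day 1 libraries, so a gene floored on day 1 can fail it whatever its day 0 reads. Neurog1, of the next list, failed it at 0.196 with 101.6 and 22.0 reads on day 0. The 13 were thus selected partly by day 1 values, and their median is no measure of how reliable the full list is. Neurogenesis factors, the basic helix-loop-helix and Ebf genes of newborn neurons, had a median of -0.72 over 18 genes, none higher and 7 lower. Neurog1 was at -2.76, Neurod4 at -2.17, Nhlh1 at -1.61 and Nhlh2 at -1.46 with 931.5 and 498.5 reads. All 7 were kept in both windows, and 12 of the 18 genes were called lower over the later days (26.7% of all genes).

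The list of mature neuron genes had a median of 0.71 over 31 genes, with 8 higher and 2 lower. Mapt, which encodes the microtubule protein tau, was at 1.39 with 1036.0 and 3993.7 reads, L1cam, an axonal adhesion gene, at 1.71 and Syn1, a synaptic vesicle gene, at 1.65. None of the 8 was kept in either window and 5 were reversed in days 8 to 14, when the list median was -0.85. The neurofilament genes Nefm (-2.16) and Nefl (-1.51) were the lower members, and Nefl was kept in both windows.

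Retinoic acid targets had a median of -0.72 over 13 genes, with 1 higher and 6 lower. The lower genes included, besides Crabp1, Crabp2 and Cyp26b1, also Cyp26a1 (-2.14) and Hoxb1 (-1.04), and the higher one was Dhrs3 (1.42). Of the 6 lower genes 5 were kept in days 1 to 4 and 3 in days 8 to 14. FGF and ERK targets had a median of -0.48 over 13 genes on day 0, none higher and 4 lower. These were the feedback inhibitors Spry2 (-1.44), Spry4 (-1.31, 1083.9 and 641.5 reads), Dusp6 (-1.15) and Spry1 (-1.08). None was kept in days 1 to 4, and Dusp6 was at 0.56, 1.401, 0.67 and 1.298 on those days.

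**Figure D4:**
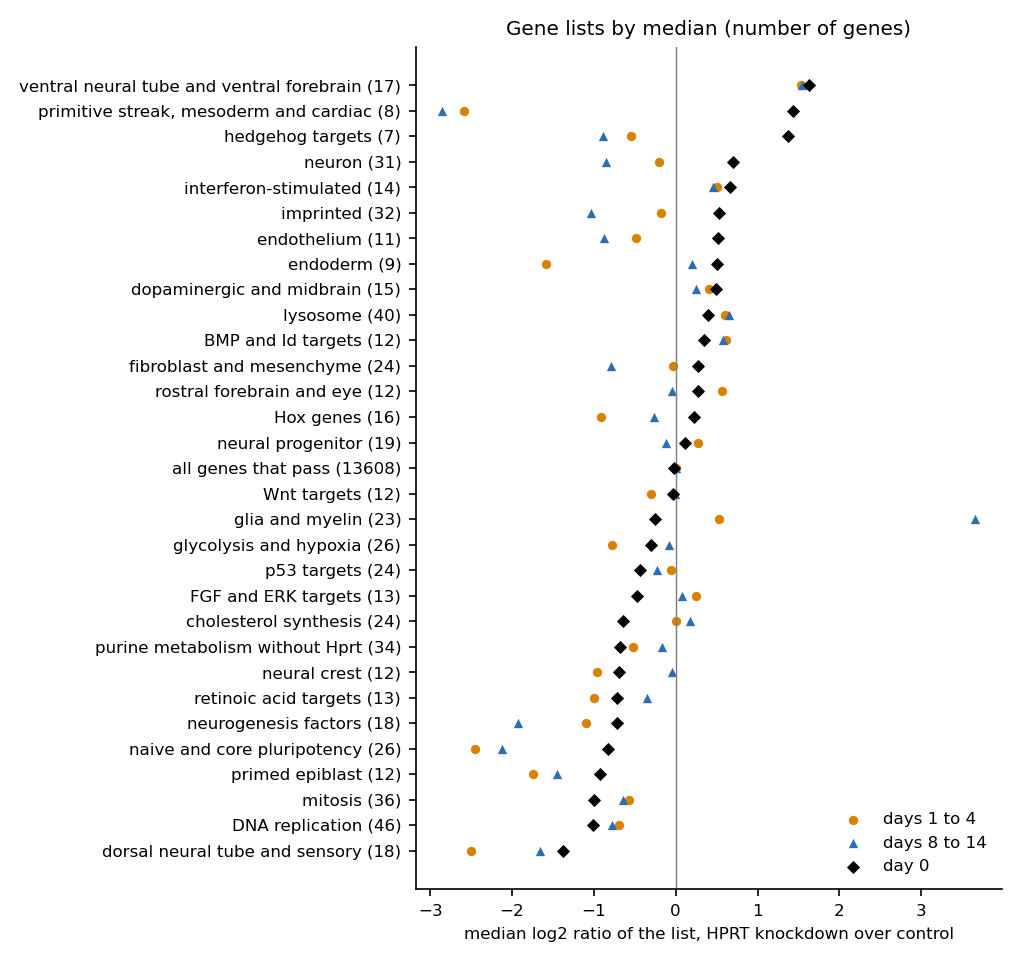
Median log2 ratio of the HPRT knockdown over the control (x axis) of each of 30 gene lists and of all genes (y axis, number of genes in parentheses), for day 0 (black diamonds), days 1 to 4 (orange circles) and days 8 to 14 (blue triangles, median of 4 days per gene). Ventral genes lie highest on day 0 at 1.62 and dorsal genes lowest at -1.37, and the glia list goes from -0.25 to 3.66.

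The list of 26 pluripotency genes had a median of -0.83, with 10 at least 2-fold lower, among them Nanog at -1.11 and the Nodal coreceptor gene Tdgf1 at -1.46. In days 1 to 4 the median was -2.45, and 25 of the 26 genes were called lower over the later days (26.7% of all genes). Pou5f1, at the core of the pluripotency network, had 1410.8 and 1450.7 reads on day 0, a ratio of -0.51, and was at -6.83, -3.97, -1.07 and -1.30 on days 1 to 4. The 1 higher member was Tbx3 at 1.94. Primed epiblast genes had a median of -0.92 over 12 genes, 5 of them lower, led by Lin28b.

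The primitive streak, mesoderm and cardiac list had a median of 1.43 over the 8 genes measured, with 6 higher. T (brachyury, Gene ID 20997, chr17:8627288-8635361, plus strand), the defining gene of the primitive streak and notochord, had 298.1 reads in the control and 4964.1 in the knockdown, a ratio of 3.50 with an interval of 3.34 to 3.68. T was at 2.84, 3.45, 2.30 and 3.47 on days 1 to 4 and at 3.73, 1.96, 4.18 and 5.85 on days 8 to 14, higher in the knockdown throughout (limma adjusted p 0.000253). The heart muscle genes Actc1 (1.14, 292.7 and 946.1 reads), Myh6 (1.73), Myh7 (1.91) and Myl4 (1.04) reversed in both windows, and Hand2 (2.87) was kept only in days 8 to 14. Fibroblast genes, which the feeder cells would also express, had a median of 0.28 over 24 genes, 5 higher and 1 lower. Col1a1 was at 1.64 and Acta2 at 1.82, and 4 of the 5 were reversed in days 8 to 14. The part of feeder cells in the day 0 ratios was not tested, as the tables give ratios and no summed level.

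The glia and myelin list held 5 higher and 9 lower genes among 23 on day 0, with a median of -0.25 that was 0.48 for the 17 members with a log2 count of at least 8. Among the higher genes, Aldh1l1 was at 1.87 with 496.1 and 2655.9 reads, Slc1a2 at 1.83, Gfap at 1.82, Aqp4 at 1.70 and Bcan at 1.12, and all 5 were kept in days 1 to 4. The lowest of the 9 lower genes was Gpr37l1 (-3.95), a receptor gene known from astrocytes. Of the genes known from myelin and the oligodendrocyte lineage, Mag was at -2.80, Mbp at -2.05 and Sox10 at -1.81 with 1698.5 and 713.0 reads. All 9 were reversed in days 8 to 14, when the list median was 3.66.

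DNA replication genes had a median of -1.01 over 46 genes, none higher and 24 lower. The lowest were the clamp loader gene Rfc4 (-1.72), Gmnn (-1.70), which encodes the licensing inhibitor geminin, and Pole2 (-1.59, 279.9 and 136.4 reads), a subunit gene of DNA polymerase epsilon. Of the 24, 19 were kept in days 1 to 4 and 20 in days 8 to 14, and 44 of the 46 genes were called lower over the later days (26.7% of all genes). Mitosis genes had a median of -0.9985 over 36 genes, none higher and 18 lower. Pttg1 (securin) was at -2.05 with 800.9 and 284.0 reads, Cdk1 at -1.69 and Bub1, of the spindle checkpoint, at -1.48. Of these 18, 15 were kept in days 1 to 4 and 17 in days 8 to 14.

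Promoters of the DNA replication list are shown because 24 of its 46 members were at least 2-fold lower on day 0 and E2F factors are known to act at such genes. A promoter is the 250 bases before and 50 bases after the start of the gene in RefSeq on GRCm38.p6, and the capitals mark the E2F-type letters TTTCCCGC, TTTGGCGC, TTTCGCGC or TTTGCCGC on either strand, which do not overlap one another in these windows. The members shown are the 3 with the lowest day 0 ratio among those that hold the letters and whose tables agreed within 0.1, Pole2 (chr12:69228141-69228440, minus strand), Cdt1 (chr8:122567765-122568064, plus strand) and Rfc3 (chr5:151651159-151651458, minus strand).
Pole2: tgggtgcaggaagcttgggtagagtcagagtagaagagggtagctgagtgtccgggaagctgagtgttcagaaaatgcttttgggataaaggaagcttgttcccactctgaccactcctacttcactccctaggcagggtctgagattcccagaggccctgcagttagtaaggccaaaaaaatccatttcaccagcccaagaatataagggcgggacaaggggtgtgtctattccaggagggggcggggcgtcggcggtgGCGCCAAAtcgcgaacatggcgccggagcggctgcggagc
Cdt1: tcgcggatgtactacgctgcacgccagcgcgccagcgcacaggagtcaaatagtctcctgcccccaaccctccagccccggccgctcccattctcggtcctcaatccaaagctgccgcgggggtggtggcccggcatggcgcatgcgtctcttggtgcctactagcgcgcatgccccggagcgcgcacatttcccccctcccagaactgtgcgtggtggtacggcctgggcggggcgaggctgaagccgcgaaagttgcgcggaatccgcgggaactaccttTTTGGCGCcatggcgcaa
Rfc3: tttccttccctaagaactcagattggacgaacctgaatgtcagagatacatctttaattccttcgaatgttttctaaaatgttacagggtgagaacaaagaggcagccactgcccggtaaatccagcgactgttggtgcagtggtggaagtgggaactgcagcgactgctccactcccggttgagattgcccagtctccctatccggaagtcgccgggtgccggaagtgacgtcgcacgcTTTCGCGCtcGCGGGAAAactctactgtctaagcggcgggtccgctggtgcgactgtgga
The letters occurred in 14 of the 37 replication promoters matched (37.8%), in 1 of 29 mitosis promoters (3.45%) and in 491 of all 10515 promoters matched (4.67%). Within the replication list the median day 0 ratio was -1.03 for the 14 genes with the letters and -0.97 for those without. Cdt1, a licensing factor gene, had 1403.6 and 914.8 reads and a ratio of -1.17, and Rfc3 was at -1.06. A match describes the letters in the window and not binding.

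Purine metabolism genes other than Hprt had a median of -0.68 over 34 genes, with 1 higher and 5 lower. The lower ones span the pathway. Ppat (-1.12), the amidotransferase of the first committed step, and Adsl (-1.25) act in de novo synthesis, Aprt (-1.06) and Adk (-1.07) salvage adenine and adenosine, and Ada (-1.13) deaminates adenosine. The higher one was Gmpr at 1.32, which encodes GMP reductase. Ppat and Adsl were kept in both windows, at a limma adjusted p of 0.00194 and 0.000343 over the later days. Aprt was lost in both windows. Ada, with 59.3 and 39.8 reads on day 0, was lost in days 1 to 4 and reversed in days 8 to 14, at a median of 0.75. The list median was -0.53 in days 1 to 4 and -0.17 in days 8 to 14.

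Cholesterol synthesis genes had a median of -0.64 on day 0 with 4 of 24 lower, and of 0.00 in days 1 to 4. Lysosome genes had a median of 0.40 with none lower and 4 of 40 higher, among them Npc1 (1.08) and Gaa (1.07), where 12.5% of all genes were higher. Of the 40, 34 were called higher over the later days (26.7% of all genes). Glycolysis and hypoxia genes were at -0.31, with 2 higher and 1 lower of 26, and p53 targets at -0.43, with 2 of 24 lower. The counts of these 2 lists were near or under the shares of all genes, 12.5% higher and 6.62% lower.

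Imprinted genes had a median of 0.53 over 32 genes, with 12 higher and 3 lower, and 8 of the 12 were reversed in days 8 to 14. Igf2, a fetal growth factor gene, was at 2.75 on day 0, at -3.10, -2.21, -3.49 and -0.002 on days 1 to 4 and at -2.11, -2.75, -2.57 and -3.59 on days 8 to 14. Peg3 (3.13) and Magel2 (1.63, 429.0 and 1943.0 reads) were higher on day 0 and below 0 as the median of days 8 to 14, at -0.44 and -1.89. Cdkn1c, a cyclin-dependent kinase inhibitor gene, was lower at -1.23 and was kept in both windows. Several imprinted transcripts overlap or run antisense to a neighbor, and strand was not used here. Meg3 and Usp29 had tables disagreeing by 0.17 and 0.15 and Copg2 by 1.2.

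The remaining lists were mixed, and their counts stand beside 12.5% higher and 6.62% lower of all genes. Interferon-stimulated genes had a median of 0.66 (3 higher and 2 lower of 14), BMP and Id targets of 0.35 (4 and 0 of 12), rostral forebrain and eye genes of 0.27 (5 and 2 of 12), Wnt targets of -0.04 (1 and 2 of 12) and neural crest genes of -0.69 (1 and 5 of 12). Endothelial genes were at 0.52 (4 and 3 of 11), endoderm genes at 0.51 (2 and 1 of 9) and Hox genes at 0.23 (4 and 2 of 16). Members with a log2 count of at least 8 had a median of -0.02 (6 interferon-stimulated genes), 0.02 (5 BMP and Id targets) and 0.06 (6 Wnt targets). Vax2 (-2.67) was among the lower rostral genes, and Six3 (2.56), Emx2 (2.11), Fezf1 (2.06), Otx1 (2.01) and Six6 (1.79) the higher ones.

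The day 0 ratio varied with exon length. In the 10% of genes with the shortest exon length, 219 to 1602 bases, the median ratio was -0.45, and in the 10% with the longest, from 8433 bases up, it was 0.46. At least 2-fold higher ratios were found in 6.22% of the shortest and 25.2% of the longest genes, and at least 2-fold lower ones in 16.2% and 1.15%. The longest minus the shortest class was 0.91 on day 0 and lay between -0.11 and 0.24 on the other 9 days. Between day 0 and day 1 it was 0.36 in the control and -0.48 in the knockdown. Lower genes lost in days 8 to 14 had a median exon length of 1980 bases, and those kept 2904. Higher genes lost in those days had 5258.5 bases, and those kept 4406. With the median of each of 20 length classes set to 0 on each day, 1538 genes were at least 2-fold higher and 616 lower on day 0. Then 1343 of the 1627 higher genes with a known length and 491 of the 821 lower ones still passed 2-fold. In days 8 to 14, 52.3% of the lower genes so chosen were kept and 38.2% lost. Of the higher ones 38.0% were kept and 41.6% lost. Replication genes were then at -0.88 with 18 lower, mitosis genes at -0.94 with 13 lower, ventral genes at 1.81, dorsal genes at -1.01 and pluripotency genes at -0.54 with 5 lower. Fibroblast genes then had 2 higher members in place of 5, FGF and ERK targets 2 lower in place of 4 and purine genes 3 lower in place of 5.

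Ribosomal protein genes, chosen after their values were seen, have a median exon length of 1454 bases, and 39 of 72 were at least 2-fold lower on day 0. Their median was -1.05 on day 0, -0.57 in days 1 to 4 and -0.23 in days 8 to 14. Many have near-identical pseudogenes, so reads could be split among copies. The part of length or of RNA quality in any day 0 ratio was not tested.

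The day 0 ratio also varied by chromosome. The 528 genes of chromosome 15 had a median of -0.37, while those of the other chromosomes lay between -0.13 and 0.05. On chromosome 15, 67.4% of genes were below 0, against 50.7% elsewhere, and 14.6% were at least 2-fold lower, against 5.96%. On day 0 all 6 windows of 20 Mb along the chromosome had medians between -0.45 and -0.29, and of 131 windows elsewhere the lowest was at -0.49. A lasting shift was not confined to chromosome 15. On chromosome 10 the window from 60 to 80 Mb, with 160 genes and Cdk1 among them, was at -0.28 on day 0. It lay between -0.32 and -0.23 on days 1 to 4 and between -0.22 and -0.10 on days 8 to 14. The chromosome 15 median was -0.34, -0.43, -0.18 and -0.54 on days 1 to 4 and -0.38, -0.18, -0.12 and -0.12 on days 8 to 14, below every other chromosome on those 8 days. Single windows varied more, and the window from 40 to 60 Mb was at 0.028 on day 10 and 0.024 on day 12. On day 6 the chromosome median was -0.03, inside the range of the others. Over the later days limma called 45.8% of chromosome 15 genes lower and 12.5% higher, against 26.1% and 27.5% elsewhere. Among genes described above Wnt1, Sox10 and Adsl lie on chromosome 15. The chromosome 15 median on day 0 was -0.40 with a log2 count of at least 8 and -0.32 with the length classes set to 0.

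**Figure D5:**
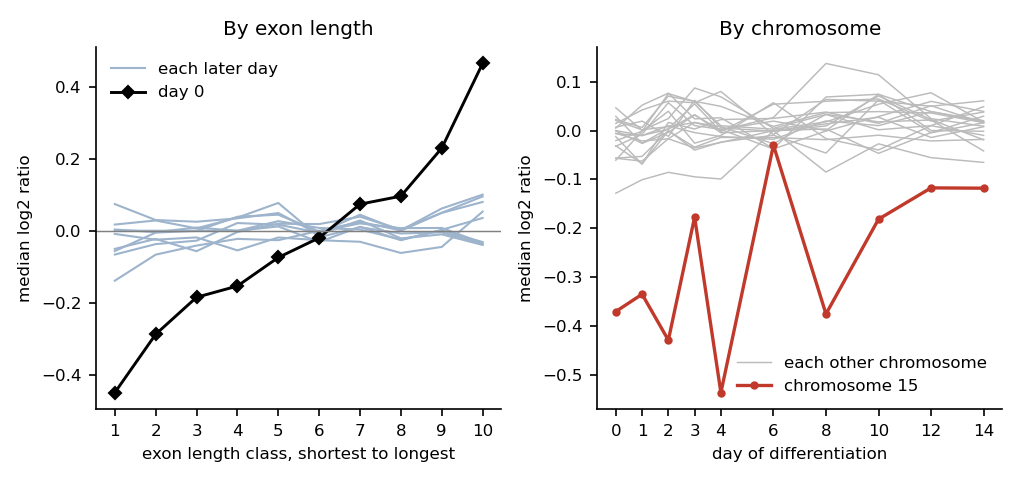
Median log2 ratio of the HPRT knockdown over the control by class of exon length, each of 10% of the genes (left, day 0 in black, each later day in pale blue) and by chromosome on each day (right, chromosome 15 in red, each other chromosome in grey). On day 0 the median goes from -0.45 in the shortest to 0.46 in the longest class. The chromosome 15 line lies below all others on every day but day 6.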

How the data were processed

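RNA-seq was performed on 20 libraries of ESD3 spherical neural masses, 10 per line. Per the study's methods, TruSeq libraries were sequenced on a HiSeq 2000 for 50 cycles, aligned by ELAND in CASAVA 1.8.2 to NCBI37/mm9 and counted and DESeq-normalized by the authors in Avadis NGS. Which lane held which library is not stated in the sources used here. The authors deposited 28 tables of 2 libraries, each holding log2 normalized counts, floored at 1 normalized count, minus the mean of the 2 libraries, so that a table gives a log2 ratio and no level. Tables were normalized separately, and their values were not joined. All columns were mapped to samples by their names.

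Levels were read from the rounding step of the single-precision values, and a typical log2 count of at least 4 was required. Day 0 reads were recovered in steps of 1/49 of a read, from tables of all days. The solution was the smallest control count that scored well enough over the other libraries, and tables at odds with it lowered the score. Control counts were searched up to a set limit, so genes with the most control reads tended not to be recovered. The highest recovered count was 7484. Both steps were tested on simulated data. Library totals were not used, so depth was known gene by gene. Intervals were exact Clopper-Pearson intervals of the knockdown's share of reads.

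The day 0 ratio had 1 library per group and no test. limma 3.58.1 in R 4.3.3 (lmFit, eBayes, two-sided, Benjamini-Hochberg over 13608 genes) was fitted to the per-day ratios of days 1, 2, 3, 4, 8, 10, 12 and 14. The later days are successive collections of 1 pair of lines and not independent cultures, so p-values measure the spread between days. Day 6 was left out of tests, as in the pathway analysis of the study. A gene at least 2-fold on day 0 was kept or reversed in a window when the median of its 4 ratios was at least 1.5-fold (0.58 on the log2 scale) with the same or the opposite sign, and otherwise lost.

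Genes named were Hprt, the 10 highest and 10 lowest at a log2 count of at least 8 and the 5 highest and 5 lowest between 4 and 8 where tables agreed within 0.1, among these same populations the 5 kept, reversed and lost most in each direction, and in each list the 2 highest and 2 lowest members past 2-fold. Some genes that these rules name are not reported here. Other members, ribosomal protein genes and the exon length and chromosome 15 values were chosen after values were seen. The comparison and the gene lists were chosen with earlier results of these data known. Lists were written from general knowledge, with names matched through the deposited aliases and RefSeq. Exon lengths and positions came from the NCBIM37 annotation for 13020 of the genes (95.7%), and promoters from RefSeq. Alternatives were another level limit, no filter, other folds, recentring, day 0 taken through the day 1 tables, day 6 kept, single days left out and another test. Those added after seeing the data were no chromosome 15, agreeing tables only and length classes set to 0.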

Additional observations from a re-analysis of the deposited data

How the results depend on the processing

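Over all alternatives 419 values were recomputed, of which 391 stayed within 1.5 times of a count, or within the spread between days of another value, and 28 moved further. For list medians that spread includes change over the course. It was 2.04 for pluripotency and 1.84 for glia and myelin genes, so such lists could shift far and still count as within it. Day 0 values taken through the day 1 tables rest on the same 2 day 0 libraries and are no independent check. Genes at least 2-fold higher and lower on day 0 numbered 664 and 409 with a log2 count of at least 8, 2910 and 1445 with no filter, and 3030 and 2646 at 1.5-fold. Asking for 2-fold in the later days, the higher genes were kept at 37.7%, lost at 57.5% and reversed at 4.82% in days 1 to 4, and kept at 21.4%, lost at 65.2% and reversed at 13.4% in days 8 to 14. The lower genes were then kept at 35.1%, lost at 63.4% and reversed at 1.55% in days 1 to 4 and kept at 28.0% in days 8 to 14. With a log2 count of at least 8, reversed shares were 1.51% and 10.4% of the higher genes and 1.71% and 4.40% of the lower genes in the earlier and later window. Choosing genes at 1.5-fold on day 0, 53.3% of the lower genes were lost in days 1 to 4 and 28.0% kept in days 8 to 14. The planned limma comparison of day 0 with the later days is not reported, since day 0 is 1 pair whose ratio chose the genes.

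List medians on day 0 with a log2 count of at least 8 were 0.93 for the 4 ventral genes left, -0.017 for interferon-stimulated and 0.019 for BMP and Id genes, and the medians of neural progenitor, glia and myelin and Wnt target genes changed sign by less than the spread between days. Lists with under 3 members left, 7 in number, have no median there, a limit chosen after seeing the data. With no filter the rostral list was at 1.00, and with length classes set to 0 the lysosome list at 0.52. With agreeing tables only the dorsal list was at -0.057, but that limit can also remove genes floored on day 1. The ratio within a day already pairs the lines, and no further paired analysis was possible because each line had 1 library per day. Depth limits genes with few control reads most. In these the counting interval was wide, and a second day 0 library per line was not analysed here.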

Other observations

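Single genes of the endoderm, endothelial and interferon-stimulated lists, whose lists were given by counts above, had large day 0 ratios with recovered reads. Cubn, an endocytic receptor gene of absorptive epithelia, had 19.4 reads in the control and 551.7 in the knockdown, a ratio of 4.27, and was kept in both windows, although the 8 later days together did not pass the test (limma adjusted p 0.483). The endothelial receptor gene Flt1 had 38.0 and 308.6 reads, a ratio of 2.47, and was called higher over the later days (limma adjusted p 0.00265), while the endothelial gene Emcn had 132.9 and 52.0 reads, a ratio of -1.91. The interferon-stimulated gene Ifi44 had 182.0 and 852.0 reads, a ratio of 1.67, and was called higher later (limma adjusted p 0.0139), and Psmb8, of the immunoproteasome, had 47 and 23 reads, a ratio of -1.58. By the share of G and C in the exons, the median day 0 ratio was -0.16 in the lowest 10% of genes and 0.11 in the highest, and on day 1 it was -0.17 and 0.16.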
